A study of Mus musculus with 53 samples.

Results

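The genes that encode proteasome subunits were followed in brainstem, cerebellum, cortex and striatum of mice with and without a transgene for spinocerebellar ataxia type 3 (SCA3). Members were the genes whose symbol is Psma, Psmb, Psmc or Psmd followed by digits, or Psme followed by a digit, and 39 of the 12372 genes in the count table met this rule. The core particle was represented by 15 genes, the regulatory particle by 20 and the separate activators by 4. Of the 43 proteasome genes looked up, Psma8, Psmb8, Psmb9 and Psmb11 were not analysed here. The rule used gene names and no measured value.

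The SCA3 mice were hemizygous MJD84.2 animals, in which a full-length copy of human ATXN3 with a lengthened CAG tract is expressed in all tissues next to the mouse gene. Wild-type C57BL/6 mice served as controls. All animals were untreated males that had gone through motor tests and were aged 74 to 77 weeks. The 53 libraries came from 14 mice, with brainstem from 8 controls and 6 SCA3 animals, cerebellum and also cortex from 7 and 6, and striatum from 8 and 5. Library totals lay between 31.7 and 76.7 M counts (M for mega), and the lowest count of any member in any library was 232.

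Regional markers followed the labels in part. Cerebellum markers summed to 4390 to 6150 CPM (read counts relative to the TMM-adjusted size of the library) in wild-type cerebellum and to at most 335 CPM in the other wild-type regions, whereas cortex markers overlapped between cortex (438 to 1840 CPM) and striatum (69.9 to 721 CPM). In the wild-type striatum, the summed level of 10 thalamus markers ranged from 187 to 2840 CPM, against 188 to 470 CPM in the SCA3 striatum, and all 10 were lower in SCA3 (median log2 fold change -1.75, 6 called). The 9 measured striatal projection neuron markers were all on the higher side in the SCA3 striatum (median 0.47, 0 called), with a summed level of 5470 to 8080 CPM against 2030 to 8950 CPM in wild-type. Oligodendrocyte markers were lower in SCA3 for 12 of 12 genes in brainstem (median -0.54, 4 called) and 12 of 12 in striatum (median -0.58, 6 called), and astrocyte markers for 9 of 10 in each of these regions (3 and 4 called). Mean RNA integrity number (RIN) in brainstem was 7.78 in SCA3 and 7.24 in wild-type. In tissue samples, fewer cells of a type and less RNA per cell cannot be told apart.

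The proteasome degrades proteins that carry ubiquitin chains. Its core particle is a barrel of stacked rings: alpha subunits form the outer rings and gate the channel, and beta subunits form the inner rings, of which Psmb5, Psmb6 and Psmb7 carry the protease activities. The regulatory particle caps the barrel. Its base holds a ring of ATPases (Psmc1 to Psmc6) that unfold substrates and feed them inward, with Psmd1 and Psmd2 as scaffold and Psmd4 as a ubiquitin receptor, and its lid includes Psmd14, which removes ubiquitin from substrates. Under interferon the catalytic subunits are exchanged for immunoproteasome versions, among them Psmb10 in place of Psmb7, and the activator of Psme1 and Psme2 can replace the regulatory particle. Ataxin-3, the protein encoded by Atxn3, is itself a deubiquitinating enzyme that binds ubiquitin chains, and impaired protein degradation is among the processes examined in SCA3.

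Psmb10 was the member called between genotypes, in striatum and not under every alternative setting. Psmb5 and Psmb6 are constitutive catalytic subunits, and Psme1 is an interferon-inducible activator with the widest regional range of the members. The promoters of these 4 members are shown because the results below turn on them. Each runs from 250 bases before to 50 after the RefSeq start, 5′ to 3′ (GRCm38.p6), at chr8:105938343-105938642 on the minus strand, chr14:54617946-54618245 on the minus strand, chr11:70525107-70525406 on the plus strand and chr14:55578244-55578543 on the plus strand. Capitals mark matches on either strand to TGACNNNGC, the core of the antioxidant response element, or to the core of the interferon-stimulated response element (GAAA, any 2 bases, GAAA).
Psmb10: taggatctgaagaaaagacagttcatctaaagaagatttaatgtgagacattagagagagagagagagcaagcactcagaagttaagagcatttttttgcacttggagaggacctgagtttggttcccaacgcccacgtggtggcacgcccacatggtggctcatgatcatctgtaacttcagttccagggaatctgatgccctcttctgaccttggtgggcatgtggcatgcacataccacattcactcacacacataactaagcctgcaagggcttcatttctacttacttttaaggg
Psmb5: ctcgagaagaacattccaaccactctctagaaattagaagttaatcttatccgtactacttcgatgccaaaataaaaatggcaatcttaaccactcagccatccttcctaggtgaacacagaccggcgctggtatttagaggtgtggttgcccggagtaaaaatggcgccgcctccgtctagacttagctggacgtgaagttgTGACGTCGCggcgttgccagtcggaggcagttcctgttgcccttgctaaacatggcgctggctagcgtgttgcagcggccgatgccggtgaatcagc
Psmb6: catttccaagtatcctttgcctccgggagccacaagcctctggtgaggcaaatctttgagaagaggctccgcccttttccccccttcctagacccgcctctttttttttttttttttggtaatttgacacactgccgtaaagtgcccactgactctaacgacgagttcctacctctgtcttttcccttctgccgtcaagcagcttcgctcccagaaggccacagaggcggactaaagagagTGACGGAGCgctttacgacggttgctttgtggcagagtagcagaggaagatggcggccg
Psme1: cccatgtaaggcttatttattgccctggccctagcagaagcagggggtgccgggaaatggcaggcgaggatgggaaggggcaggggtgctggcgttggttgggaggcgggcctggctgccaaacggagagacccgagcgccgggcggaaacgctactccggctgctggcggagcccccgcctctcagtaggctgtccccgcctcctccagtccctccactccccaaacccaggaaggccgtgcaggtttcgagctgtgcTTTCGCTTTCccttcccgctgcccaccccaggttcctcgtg
RefSeq windows matched 33 of the 39 members. TGACNNNGC occurred in 6 of these 33 (18.2%): Psmb5, Psmb6, Psmc6, Psmd9, Psmd12 and Psme4. Among the genes of the count table with a window the share was 17.1%. The interferon element occurred in 4 members (Psmb3, Psmd4, Psmd9 and Psme1, 12.1%), after the start in Psme1 and before it in the others, against 3.47% of the genes of the table. CCAAT occurred in 12 members (36.4%), against 42.8%. No match in the Psmb10 window says only that these letters are absent from it. A match is a match of letters and was not tested for binding.

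Per transcript length, the members spanned a wide range in wild-type brain. Levels were expressed as RPKM (CPM per kilobase of RefSeq exon), averaged over the 4 regions. Among core genes the highest were Psmb7 at 84.7 RPKM and Psmb6 at 81.4 RPKM, and the lowest were Psma3 at 14.2 RPKM and Psmb10 at 14.5 RPKM. The alpha ring ran from Psma3 to Psma7 at 80.8 RPKM with a median of 45.4 RPKM, and the beta ring from Psmb5 at 25.4 RPKM to Psmb7 with a median of 51.9 RPKM. The products of these ring genes occur in equal number in the barrel. RPKM depends on the annotated exon length as well as on the counts.

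In the regulatory particle the ATPase genes had a median of 64.1 RPKM. Psmc5 reached 122 RPKM and Psmc1 86.4 RPKM, the top of all members, while Psmc6 was lowest of the ring at 40.2 RPKM. The non-ATPase base genes stood at 68.2 RPKM (median) and the lid genes at 46.3 RPKM, with Psmd11 lowest of the lid at 14.1 RPKM and Psmd7 highest at 63.4 RPKM. The assembly chaperones, which help build the base and leave before it is complete, were low: Psmd9 had 9.37 RPKM, Psmd5 10.5 RPKM, and Psmd10 was highest in brainstem at 12.9 RPKM. Of the activators, Psme3 (the nuclear activator) had 38.3 RPKM, Psme1 25.1 RPKM, Psme4 13.2 RPKM and Psme2 8.85 RPKM.

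Some levels are uncertain because of shared sequence. Over at least 125 bases at 98% identity or more, another annotated gene covered 88.4% of the Psmb5 transcript, 82.5% of Psme2, 76.5% of Psma5 and 23.4% of Psma3, and reads from such stretches may not have aligned uniquely. The near-copy of Psme2, named Psme2b, does not meet the naming rule and had 15.6 ± 0.964 CPM in wild-type brainstem (SD, n = 8), above the 8.30 ± 0.96 CPM of Psme2 itself. Exons of Psmb7 overlapped Nek6 on the opposite strand over 34.9% of their length and those of Psmd13 overlapped Sirt3 over 17.2%, and the libraries did not keep strand.

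**Figure D1:**
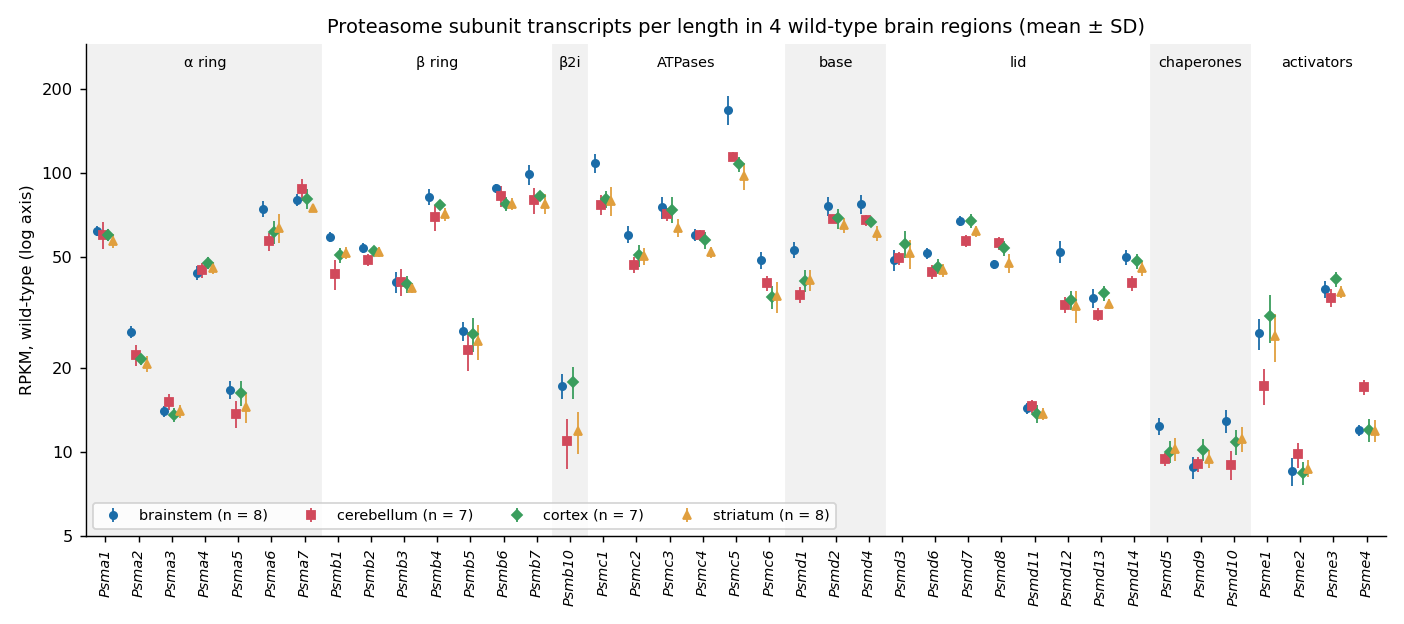
RPKM of the 39 members (x axis, grouped by position in the particle) in wild-type brainstem, cerebellum, cortex and striatum, on a log axis. Points are means and bars SD over 7 or 8 mice. Psmc5 stands highest at 169 RPKM in brainstem, and the chaperones and Psme2 lie near 10 RPKM in all regions.

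Across wild-type regions the members differed little in size but regularly in direction. The ratio of the highest to the lowest region had a median of 1.19 over the 39 members, from 1.05 for Psmb3 to 1.77 for Psme1. Over all genes the median was 1.5, and the members' median fell at the 13.8th percentile. No member exceeded a ratio of 2, against 26.7% of all genes. In the test across the 4 wild-type regions, 34 of 39 members were called at a false discovery rate (FDR) below 0.05 (edgeR likelihood ratio test, Benjamini-Hochberg over all genes), against 93.0% of all genes tested. The members called numbered 11 of 15 in the core particle, 19 of 20 in the regulatory particle and 4 of 4 among the activators.

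Brainstem was the region with the highest mean for 24 of 39 members, against 27.9% of all genes. It was highest for 10 of 15 core and 14 of 20 regulatory particle genes, and for none of the 4 activators. All 6 ATPase genes and all 3 non-ATPase base genes were highest in brainstem, whereas this held for 3 of 8 lid genes, 4 of 7 alpha and 6 of 7 beta ring genes. Striatum was highest for 0 members and lowest for 13 (16.5% and 17.5% of all genes), and cerebellum was lowest for 18 (34.1% of all genes). Members together took 0.324 ± 0.0135% of counts in wild-type brainstem (SD, n = 8), 0.287 ± 0.0174% in cerebellum (n = 7), 0.277 ± 0.00964% in cortex (n = 7) and 0.268 ± 0.0142% in striatum (n = 8).

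Brainstem exceeded cerebellum for 24 called members and lay below it for 5, where 37.6% of all genes were called higher and 35.0% lower. Brainstem exceeded cortex for 16 and lay below it for 5 (31.1% and 34.3% of all genes), and exceeded striatum for 24 and lay below it for 0 (31.5% and 32.7%). The median log2 fold change of brainstem over striatum was 0.345 for the ATPases, 0.342 for the other base genes, 0.0984 for the lid and 0.187 for the beta ring, with 0.00132 over all genes. Comparisons that share the brainstem libraries are not independent of each other. Wild-type brainstem also had the lowest mean RIN, 7.24 against 7.84 in cerebellum, 7.83 in cortex and 7.47 in striatum. Between the other regions, 20 members were called for cerebellum against cortex (69.7% of all genes), 18 for cerebellum against striatum (69.5%) and 8 for cortex against striatum (34.4%), and all 8 of the last were higher in cortex.

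**Figure D2:**
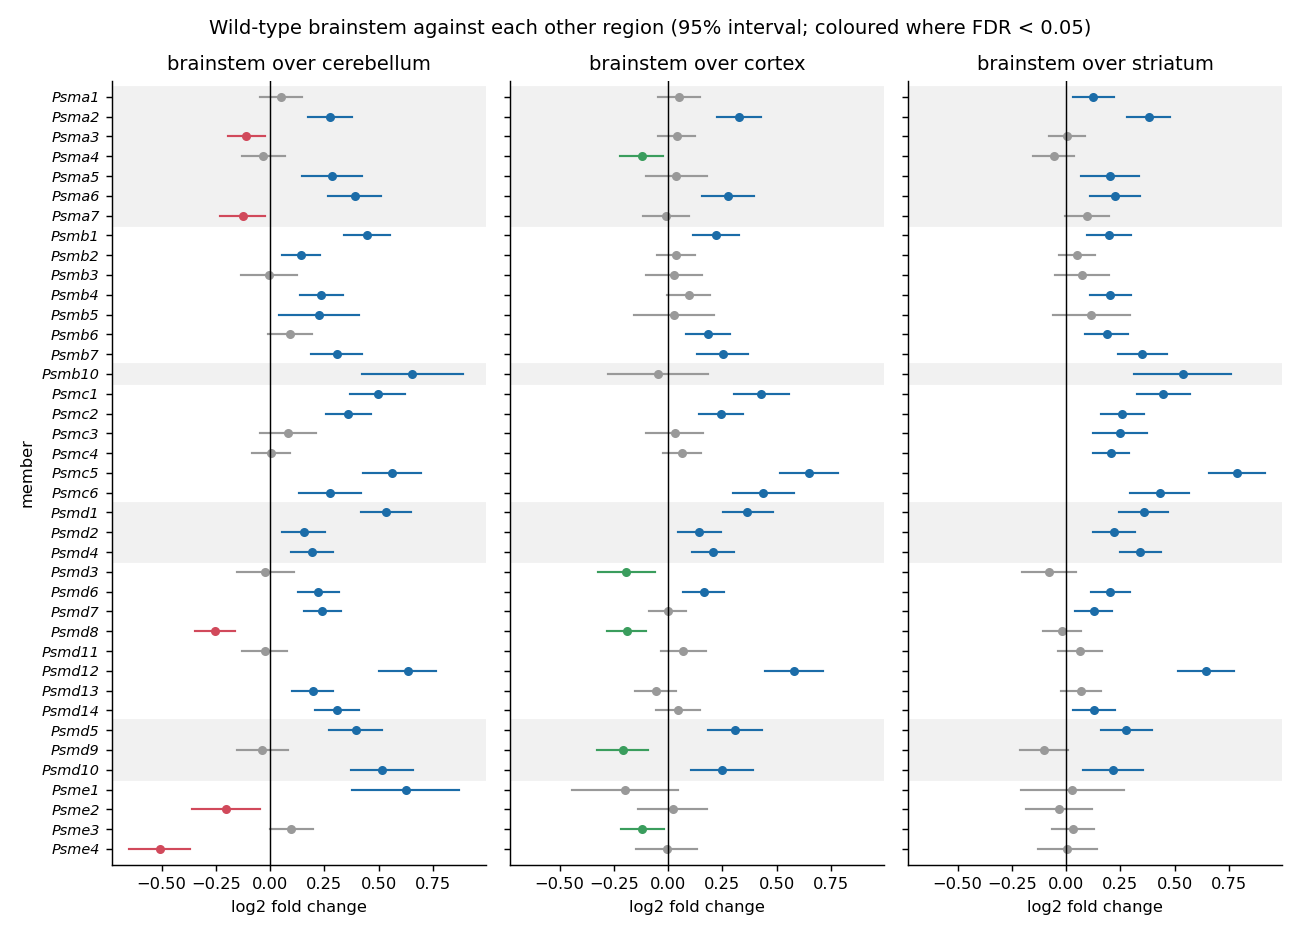
Log2 fold change of wild-type brainstem over cerebellum, cortex and striatum (panels) for each member (y axis, in particle order), with 95% intervals. Points are coloured where the FDR is below 0.05, blue for higher in brainstem and the other region's colour for lower. The ATPase and base genes (Psmc1 to Psmd4) lie at or right of 0 in all panels, and no member lies left of 0 with a call against striatum.

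Psmc5, which encodes an ATPase of the base ring, had the largest regional range in the regulatory particle (1.73). It had 222 ± 26.4 CPM in wild-type brainstem (SD, n = 8, range 194 to 271 CPM), 151 ± 5.28 CPM in cerebellum (n = 7), 141 ± 9.26 CPM in cortex (n = 7) and 128 ± 14.1 CPM in striatum (n = 8, 114 to 157 CPM). The brainstem libraries did not overlap those of any other region. Brainstem exceeded striatum by 0.79 ± 0.07 on the log2 scale (SE, FDR = 1.46e-30), while cerebellum and cortex did not differ beyond the test (0.09 ± 0.07, FDR = 0.249).

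Psmd12, a lid subunit, followed with a ratio of 1.56. Its wild-type libraries ranged from 92.8 to 115.9 CPM in brainstem, against 58.1 to 69.0 CPM in cerebellum, 58.2 to 74.8 CPM in cortex and 52.7 to 78.3 CPM in striatum. Brainstem stood clear of the other regions, which overlapped one another. Psmd1, the scaffold of the base, had 154.3 to 186 CPM in brainstem and 103 to 123 CPM in cerebellum, the latter being its lowest region (log2 difference 0.53 ± 0.06, FDR = 1.96e-18). In the core, Psmb1 and Psma6, both structural ring subunits, were highest in brainstem at 104 ± 4.12 and 85.5 ± 5.81 CPM and lowest in cerebellum at 76.3 ± 9.11 and 65.2 ± 4.77 CPM, with ratios of 1.36 and 1.31.

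Not every subunit of the same particle followed. Psmd8, Psmd3 and Psmd9 were lower in brainstem than in cortex, with log2 differences of -0.19, -0.19 and -0.21, and Psmd8 was also lower in brainstem than in cerebellum (-0.25). Psma3 and Psma7 were highest in cerebellum, and the mean of Psma3 differed by a ratio of 1.11 between its extreme regions.

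Psmb10 had the largest regional range of the core (1.63) and a pattern apart from the constitutive subunit it replaces. In wild-type mice it had 22.6 ± 2.402 CPM in brainstem (SD, n = 8), 23.3 ± 3.06 CPM in cortex (n = 7), 15.6 ± 2.68 CPM in striatum (n = 8) and 14.3 ± 2.93 CPM in cerebellum (n = 7). Brainstem and cortex did not differ beyond the test (log2 -0.05 ± 0.12, FDR = 0.744), nor did cerebellum and striatum (-0.12 ± 0.12, FDR = 0.368), and each region of the first pair exceeded each of the second by at least 0.54 on the log2 scale. Psmb7, its constitutive counterpart, had 115 ± 9.51 CPM in brainstem, 96.2 ± 3.18 CPM in cortex, 92.5 CPM in cerebellum (80.04 to 111.7 CPM) and 89.8 ± 7.38 CPM in striatum.

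Of the activators, Psme1 and Psme4 had different regional patterns. Psme1 was highest in cortex (34.0 ± 6.72 CPM, n = 7) and lowest in cerebellum (19.2 ± 2.80 CPM, n = 7), a log2 difference of -0.82 ± 0.13 for cerebellum over cortex (FDR = 1.14e-09), and it varied most between mice of a group. Psme4, a large nuclear activator, was the reverse: its cerebellar libraries held 99.5 to 123 CPM, above those of brainstem (73.0 to 81.2 CPM), cortex (71.1 to 89.2 CPM) and striatum (67.0 to 84.9 CPM). Cerebellum exceeded striatum by 0.51 ± 0.07 (FDR = 2.97e-12), and none of the differences among the other regions passed the test. Psme3 ranged narrowly, from 95.2 ± 6.97 CPM in cerebellum to 111 ± 6.98 CPM in cortex. Psme2 ranged from 8.19 ± 0.79 CPM in cortex to 9.55 ± 0.99 CPM in cerebellum, with the uncertainty from Psme2b.

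Genes that work with the proteasome were examined in the same comparisons, with no test of a difference from the members. Of 19 partner genes (chaperones of assembly, transcription factors and bound cofactors), 8 were called higher and 4 lower in brainstem than in cerebellum, 7 and 3 against cortex, and 9 and 4 against striatum, beside the shares of all genes given above. Of 17 ubiquitin and shuttle genes, 5 were higher and 3 lower in brainstem than in striatum. Oligodendrocyte markers, 12 of 12 in the table, had a summed level of 10800 to 22400 CPM in wild-type brainstem (median 19600 CPM). In striatum it was 6920 to 20100 CPM (median 9120 CPM), an overlapping range with a lower median. Their level was 3510 to 5630 CPM in cerebellum (median 5060 CPM) and 2740 to 5740 CPM in cortex (median 4630 CPM), below both. Their part in the regional result was not tested.

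The second question was whether carrying expanded ATXN3 changed these genes. Few members were called, and so were few of all genes. At the all-gene shares given here, 39 genes of the table would on average give few or no calls. The same holds for genes without overlap between the genotypes. No difference of the members from all genes was tested. In brainstem 0 of 39 members were called, against 1.92% of all genes, in cerebellum 0 against 0.0647%, in cortex 0 against 0.154%, and in striatum 1 against 7.54%. At an unadjusted p below 0.05 (edgeR likelihood ratio test) there were 2, 1, 1 and 6 members, against 13.3%, 1.66%, 4.07% and 23.2% of all genes. The combined test over the regions called 1 member, against 4.73% of all genes, and the test of region dependence called 0, against 0.218%, with a lowest FDR of 0.238 among the members. No member separated the SCA3 from the wild-type libraries without overlap in any region, where 1.38% of all genes did so in brainstem, 0.234% in cerebellum, 0.251% in cortex and 0.655% in striatum.

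The intervals were narrow enough to bound the size of a change for most members. The 95% interval lay within a 1.25-fold change in either direction for 37 of 39 members in brainstem, 37 in cerebellum, 38 in cortex and 35 in striatum. Over all genes this held for 61.3%, 70.7%, 67.0% and 53.6%. The exceptions were Psmc6 and Psme1 in brainstem, Psmb10 and Psme1 in cerebellum, Psme1 in cortex, and Psmb10, Psmc5, Psmd12 and Psme1 in striatum. The median SD within a group was 0.0944 on the log2 scale over members and 0.162 over all genes, from 0.0692 for Psma3 to 0.242 for Psme1.

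By particle, median log2 fold changes stayed near 0. For the core particle they were -0.00141 in brainstem, 0.00819 in cerebellum, -0.04 in cortex and -0.06 in striatum, and for the regulatory particle -0.02, 0.02, -0.03 and -0.06. Over all genes the medians lay between -0.00434 and 0.0028. Counted by sign, 30 of 39 members were lower in the SCA3 striatum and 31 of 39 in the SCA3 cortex, against 22 in brainstem and 13 in cerebellum. In striatum the 7 beta ring and the 6 ATPase genes were all on the lower side, with ranges of -0.07 to -0.02 and -0.19 to -0.00619, while 5 of 8 lid genes were on the higher side. None of these members passed the test. Departures from the group means varied together, with a median correlation (r) of 0.388 over core pairs without Psmb10 and 0.387 over regulatory particle pairs. The counts by sign are thus not counts of independent genes. The share of counts taken by all members was 0.255 ± 0.011% in the SCA3 striatum (SD, n = 5) against 0.268 ± 0.0142% in wild-type (n = 8), and 0.324 ± 0.0105% (n = 6) against 0.324 ± 0.0135% (n = 8) in brainstem.

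**Figure D3:**
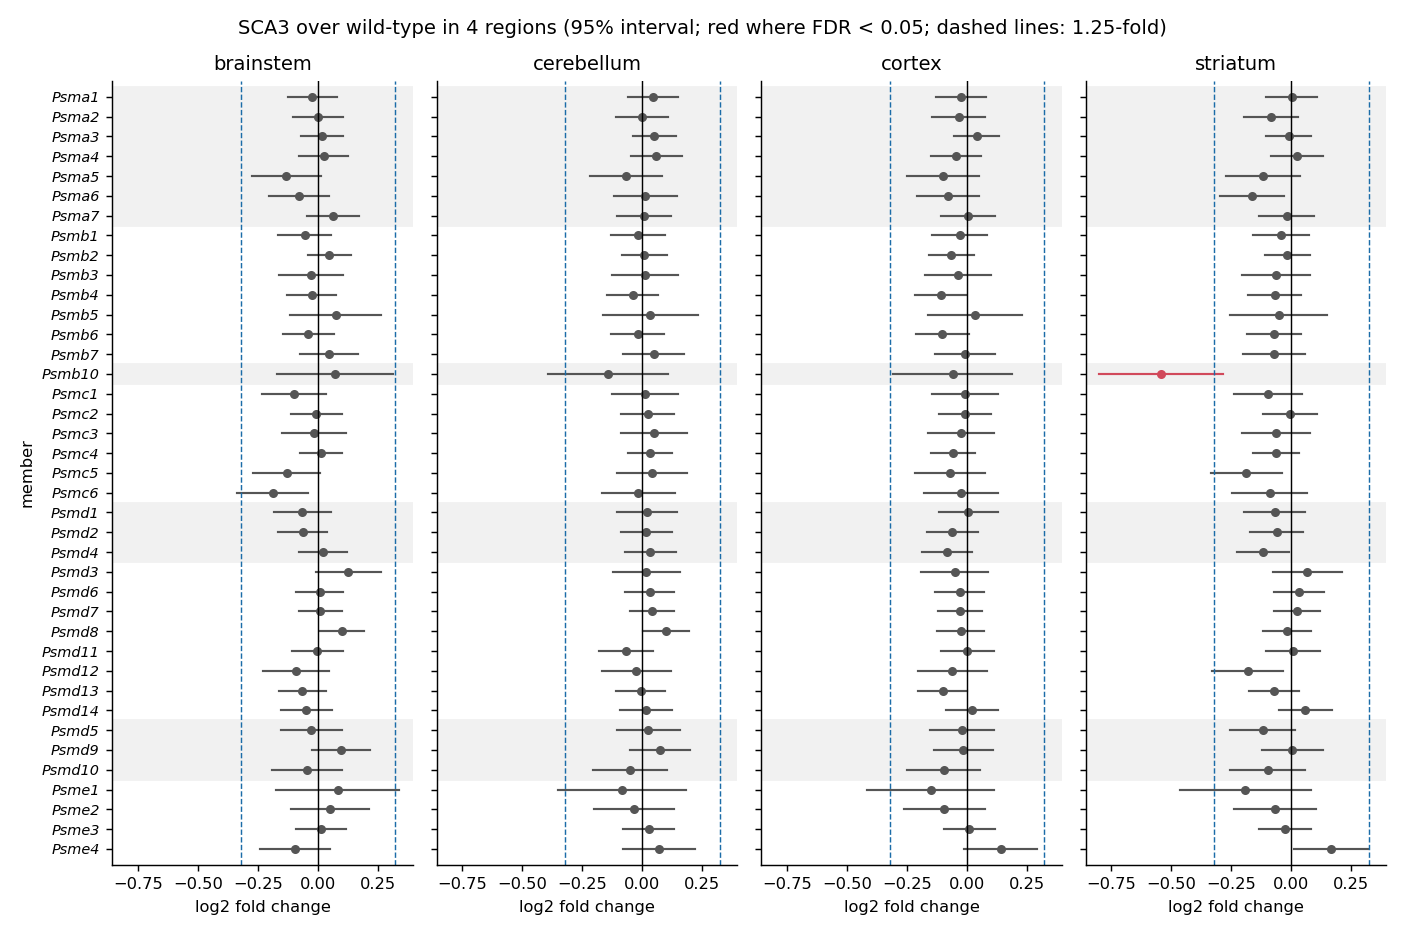
Log2 fold change of SCA3 over wild-type in brainstem, cerebellum, cortex and striatum (panels) for each member (y axis, in particle order), with 95% intervals. Red marks an FDR below 0.05 and dashed lines mark a 1.25-fold change. Psmb10 in striatum, at -0.54, is the red point, and most other intervals stay between the dashed lines.

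Values are given here for the members at the ends of the range of fold changes, the 2 lowest and the 2 highest in each region, none of them called apart from Psmb10 in striatum. In brainstem Psmc6, an ATPase, had 95.3 ± 9.38 CPM in SCA3 (n = 6, 79.6 to 103.8 CPM) and 109 ± 7.42 CPM in wild-type (n = 8, 102.8 to 124 CPM), with a log2 difference of -0.19 ± 0.08 (FDR = 0.205) and an overlap at the edge of the ranges. Psma5, an alpha ring subunit, differed by -0.13 ± 0.07 (FDR = 0.437), and the lid genes Psmd3 and Psmd8 by 0.13 ± 0.07 (FDR = 0.416) and 0.10 ± 0.05 (FDR = 0.332).

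In cerebellum these values were -0.14 ± 0.13 for Psmb10, -0.09 ± 0.14 for Psme1, 0.07 ± 0.06 for Psmd9 and 0.10 ± 0.05 for Psmd8, each with an FDR of 1. Psmd8 had 90.7 ± 3.83 CPM in the SCA3 cerebellum (n = 6) and 84.8 ± 4.51 CPM in wild-type (n = 7). In cortex they were -0.15 ± 0.14 for Psme1, -0.11 ± 0.05 for Psmb4 (a beta ring subunit), 0.04 ± 0.05 for Psma3 and 0.14 ± 0.08 for Psme4, again with an FDR of 1. Psmb4 had 84.1 ± 5.23 CPM in the SCA3 cortex (n = 6) against 90.6 ± 2.98 CPM (n = 7), and the ranges overlapped through mouse 9082853, whose SCA3 library was the highest of its group at 94.3 CPM.

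In striatum, next to Psmb10, the lowest value was that of Psme1 (-0.19 ± 0.14, FDR = 0.41). The highest were Psme4 (0.16 ± 0.08, FDR = 0.183) and Psmd3 (0.07 ± 0.07, FDR = 0.616). Psme4 had 86.7 ± 4.08 CPM in SCA3 (n = 5, 81.7 to 92.4 CPM) and 77.3 ± 6.92 CPM in wild-type (n = 8, 67.0 to 84.9 CPM). Psmc5 had 113 ± 11.8 CPM in SCA3 and 128 ± 14.1 CPM in wild-type (-0.19 ± 0.08, FDR = 0.0992), and Psmd12 had 56.0 ± 6.95 and 63.6 ± 8.44 CPM (-0.18 ± 0.08, FDR = 0.111). These 2 genes were also the ones with the steepest brainstem tilt in the regulatory particle.

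Psmb10 (chr8:105935735-105938444, minus strand, GRCm38) was the member called lower in SCA3, in striatum. Its striatal level was 10.1, 8.39, 12.0, 13.4 and 9.61 CPM in SCA3 mice 7267054, 7267056, 9082853, 9083514 and 9083515. In wild-type mice it was 15.4, 18.3, 18.8, 11.7, 11.6, 15.9, 16.6 and 16.4 CPM in 7267055, 7267058, 7267059, 9082857, 9083371, 9083372, 9083373 and 9083375. Of the wild-type libraries 6 lay above all SCA3 libraries, and those of 9082857 and 9083371 lay among them. Psmb10 fell by 0.54 ± 0.13 on the log2 scale (SE, FDR = 0.00324, edgeR likelihood ratio test), to 0.686 of the wild-type level with a 95% interval of the log2 change from -0.80 to -0.29. Over 17 other settings the FDR lay between 0.00171 and 0.522, with 10 calls, and on leaving out each of 14 mice it lay between 0.000183 and 0.0394. It was also the member called in the combined test (FDR = 0.0273), a call that was lost on leaving out any of 8 mice (FDR up to 0.224). The combined call was lost as well in limma-voom without (FDR = 0.0991) and with the mouse as block (FDR = 0.107). The quasi-likelihood F test also lost it (FDR = 0.0585).

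In the other regions Psmb10 did not pass the test. It had 23.7 ± 2.63 CPM in the SCA3 brainstem (n = 6) against 22.6 ± 2.402 CPM (log2 0.07 ± 0.12, FDR = 0.862), 13.0 ± 2.35 against 14.3 ± 2.93 CPM in cerebellum (FDR = 1) and 22.4 ± 2.99 against 23.3 ± 3.06 CPM in cortex (-0.06 ± 0.13, FDR = 1). The test of region dependence for Psmb10 gave an FDR of 0.238, so striatum was not shown to differ from the other regions. Psmb7 had 85.5 ± 6.74 CPM in the SCA3 striatum (n = 5) against 89.8 ± 7.38 CPM (-0.07 ± 0.07, FDR = 0.538), and the remaining constitutive catalytic genes Psmb5 (-0.05 ± 0.10) and Psmb6 (-0.07 ± 0.06) also did not pass.

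**Figure D4:**
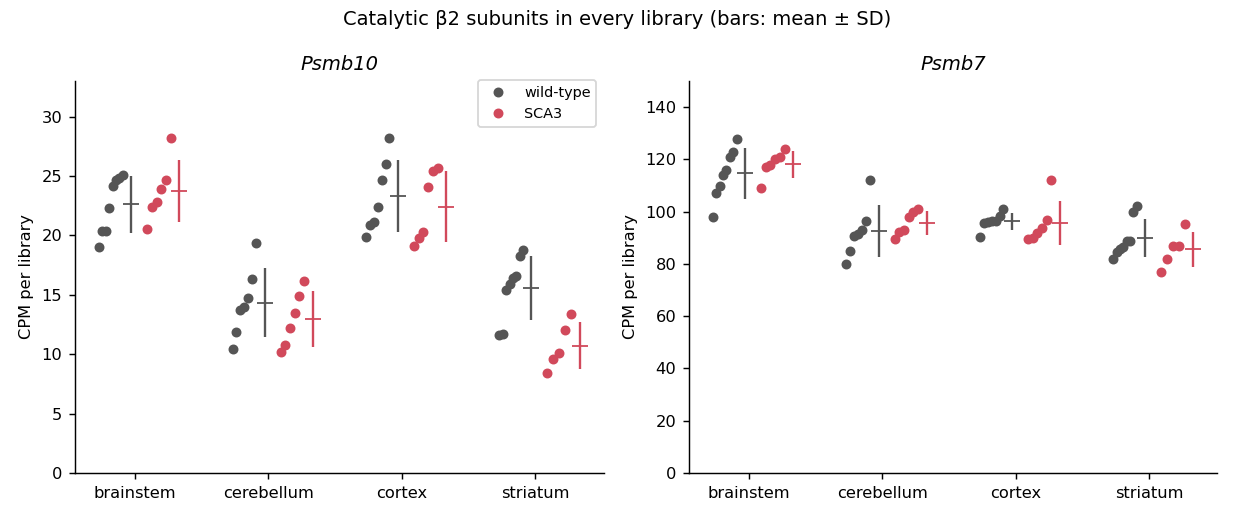
CPM of Psmb10 and of Psmb7, which it replaces in the immunoproteasome, in every library of the 4 regions. Dots are libraries in order of value, grey for wild-type and red for SCA3, and bars give mean ± SD. The SCA3 striatal libraries of Psmb10 run from 8.39 to 13.4 CPM against 11.6 to 18.8 CPM in wild-type, and Psmb7 overlaps in every region.

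Markers of another region moved with this result. Prkcd, a thalamus marker, had 15.1 and 19.9 CPM in the striatum of wild-type mice 9083371 and 9082857, within or near the 16.1 to 23.2 CPM of the SCA3 libraries, and these were the wild-type libraries whose Psmb10 lay in the SCA3 range. The other 6 wild-type libraries had 72.4 to 861 CPM of Prkcd. The whole marker list separated the libraries less cleanly. Its mean log2 CPM was 5.23 in SCA3 mouse 9082853, with Psmb10 at 12.0 CPM, and 4.44 in wild-type mouse 9083375, with Psmb10 at 16.4 CPM. With the mean level of the 10 thalamus markers as a covariate in a fit of striatum alone, the Psmb10 difference was -0.36 (FDR = 0.252). Without the 3 wild-type striatal libraries highest in these markers (7267058, 7267059 and 9083373), an alternative chosen after seeing the data, it was -0.41 (FDR = 0.193), and the count of members called in striatum was 0. SCA3 mouse 9082853, whose score lay next to the 5.29 of 9083373, stayed in that fit. With this library left out as well, also chosen after seeing the data, Psmb10 was at -0.45 (FDR = 0.16), again with 0 members called. The call was also lost in striatum alone without a covariate (-0.54, FDR = 0.0724) and with RIN of at least 7 (-0.48, FDR = 0.0714).

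**Figure D5:**
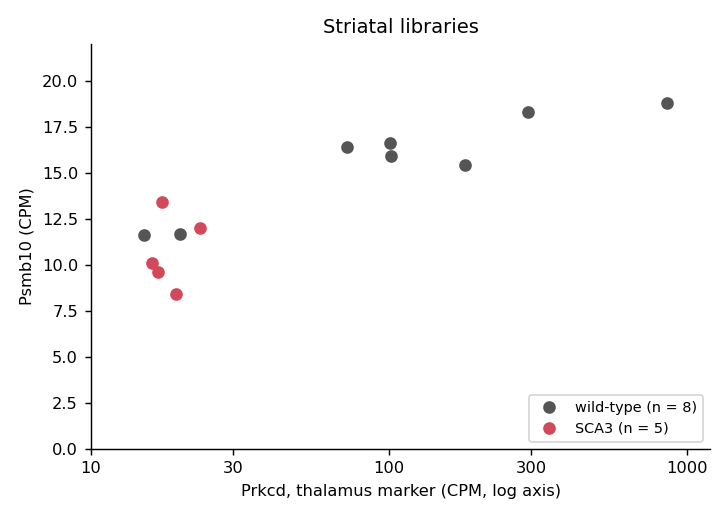
Psmb10 (y axis, CPM) against Prkcd (x axis, CPM, log axis) in the 13 striatal libraries. Grey dots are wild-type and red dots SCA3. The wild-type libraries at 15.1 and 19.9 CPM of Prkcd have Psmb10 of 11.6 and 11.7 CPM, within the SCA3 range.

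Genes of antigen presentation, to which the immunoproteasome supplies peptides, were on the lower side in the same tissue. Of 15 MHC class I and interferon genes, 14 were lower in the SCA3 striatum (median log2 -0.20), and 2 were called: Tap1 (-0.39 ± 0.13, FDR = 0.045) and Tap2 (-0.34 ± 0.09, FDR = 0.00736), the subunits of the peptide transporter, against 7.54% of all genes. Tap1 had 4.98 to 5.87 CPM in the 3 wild-type libraries highest in thalamus markers, 3.56 to 4.52 CPM in the other wild-type libraries and 3.20 to 4.14 CPM in SCA3. Without those 3 libraries neither gene was called (Tap1 -0.17, FDR = 0.821, and Tap2 -0.20, FDR = 0.452). The call of Tap1 was also lost on leaving out mouse 7267056, 7267058, 7267059, 9082853, 9083373, 9083514 or 9083515 (FDR up to 0.151), while Tap2 was called on leaving out any mouse. Over 17 other settings Tap1 kept its call in 7 and Tap2 in 10. Both calls were lost in striatum alone (FDR = 0.275 and 0.178), with RIN (0.246 and 0.171) or the thalamus score (0.732 and 0.555) as covariate there, with RIN of at least 7 (0.0941 and 0.0599) and in the 27 libraries of the largest series of mouse numbers (0.478 and 0.153), and that of Tap1 also in limma-voom with the mouse as block (FDR = 0.0918) and without it (FDR = 0.0787) and with library totals (FDR = 0.0527). Tap2 had 10.1 ± 0.797 CPM in SCA3 (n = 5) and 12.7 ± 1.69 CPM in wild-type (n = 8). In cerebellum 14 of the 15 were lower with 0 called (median -0.11), in brainstem 11 were higher with 0 called (median 0.08), and in cortex 8 were higher with 0 called (median 0.03). Their summed level in striatum was 299 to 343 CPM in SCA3 and 295 to 436 CPM in wild-type. Microglia markers, 13 of 13 in the table, summed to 577 to 716 CPM in the SCA3 striatum and 532 to 910 CPM in wild-type, and 12 of them were lower in SCA3 there with 0 called (median -0.05). The part of thalamic tissue or of glia in these differences was not tested.

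Of 19 partner genes of the proteasome 0 were called in each of the 4 comparisons of SCA3 with wild-type. Among all genes 1.92% were called in brainstem, 0.0647% in cerebellum, 0.154% in cortex and 7.54% in striatum. No difference of these partner genes from all genes was tested. The lowest FDR in striatum was that of Psmg3, a chaperone of core assembly (-0.22 ± 0.08, FDR = 0.0724). The adaptor AI314180, which tethers regulatory to core particles, was the partner with the lowest p in brainstem (-0.18 ± 0.06, FDR = 0.123), and had the opposite sign in striatum (0.17 ± 0.07, FDR = 0.0768) with a region dependence FDR of 0.142. Of 17 ubiquitin and shuttle genes 0 were called in each comparison, beside the same shares of all genes. Their medians were 0.04, -0.01, 0.00662 and -0.05 in brainstem, cerebellum, cortex and striatum.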

How the data were processed

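Poly-A libraries were made without strand information. Per the labels and the study's methods, the authors trimmed reads with cutadapt 1.10, aligned them to GRCm38 with STAR 2.3.0e, kept unique alignments and summed reads over RefSeq genes with HTSeq 0.6.1. The deposited values were raw counts of genes averaging at least 4 CPM. With the design of the study's methods, which used edgeR 3.14.0, edgeR 4.0.16 (R 4.3.3) here fitted all 53 libraries with TMM scaling and 8 groups of region and genotype, and likelihood ratio tests were adjusted by Benjamini-Hochberg over 12372 genes (FDR below 0.05). SE came from the fitted information matrix. P-values measure spread between libraries of a group, with 1 estimate of spread per gene over all 8 groups and no term for the mouse. Tests that join regions thus treat the libraries of a mouse as independent.

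RPKM used the union of GENCODE vM21 exons of transcripts paired with RefSeq, and promoters came from RefSeq. Shared sequence was found with BLAST+ 2.17.0+. Members and lists were chosen with earlier results of these data known. Named members were those called, the 2 highest and 2 lowest fold changes per region, the catalytic and activator genes, and the extremes of level and regional ratio within each particle.

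The same mouse gave up to 4 libraries, so mice pair the libraries. Within a mouse, departures from the group means had a mean r of 0.0904 to 0.186 over the 6 pairs of regions. Genotype does not vary within a mouse.

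Alternatives were DESeq2 1.42.0, edgeR's quasi-likelihood F test, limma-voom (limma 3.58.1) with and without a block for the mouse, the mouse as a fixed block, RLE factors, library totals, at least 10 counts in every library, RIN, age or number series (the leading digits of the mouse number) as covariates, RIN of at least 7 (49 libraries), a region alone (also with RIN or a thalamus score), the largest number series alone (27 libraries), leaving out each mouse, and, chosen after seeing the data, leaving out 3 or 4 striatal libraries.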

Additional observations from a re-analysis of the deposited data

Results flagged for a closer look

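In 176 sets (22 named members in 8 groups), 10 held a library set apart at one end of its group by Dixon's criterion, where chance gives about 8.8 at 1 in 20. In the SCA3 cortex the library of mouse 9082853 was the highest for 4 members: Psmb1 at 97.1 CPM (next 87.8), Psmb4 at 94.3 CPM (next 84.3), Psmb7 at 111.6 CPM (next 96.8) and Psme3 at 124 CPM (next 111). In the wild-type cortex the library of mouse 7267055 was the highest for Psma6 at 84.7 CPM (next 71.5) and Psmb1 at 100.2 CPM (next 91.1). The others were Psme2 in the SCA3 brainstem at 10.1 CPM in mouse 9083514 (next 8.49), Psmc6 in the SCA3 cerebellum at 78.3 CPM in 9083513 (next 87.8), Psma5 in the SCA3 striatum at 15.8 CPM in 7267054 (next 16.6), and Psmd3 in the SCA3 striatum at 105 CPM in 9082853 (next 116.5). No named member had an effect of genotype that differed between regions by the test of region dependence (edgeR likelihood ratio test, 0 called at an FDR below 0.05).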

How the results depend on the processing

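Counts of members called in brainstem, cerebellum and cortex were 0 under every alternative. The count in striatum (1, Psmb10) was 2 with library totals (adding Psmc5) and 3 with the number series as covariate (adding Psmc5 and Psmd12), and it was 0 with RIN of at least 7, striatum alone, striatum alone with RIN or with the thalamus score, the largest number series alone (Psmb10 -0.39, FDR = 0.522), and without the 3 striatal libraries high in thalamus markers, or those and SCA3 mouse 9082853. Leaving out a mouse gave 1 to 2, with Psmb10 called each time (FDR 0.000183 to 0.0394) and Psmd12 added without 9082853 or 9083371. The combined count (1) was 0 with the quasi-likelihood F test, limma-voom, limma-voom with the replicate block, RIN of at least 7, the largest series alone and without those 3 or 4 libraries, and 0 to 1 on leaving out a mouse. It was lost without 7267054, 7267055, 7267056, 7267058, 7267059, 9083372, 9083373 or 9083515 (FDR of Psmb10 up to 0.224). Region dependence (0) gave 0 to 1, Psmb10 being called without 9082857 (FDR = 0.0268). The cause of these changes was not tested.

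With the replicate block (limma-voom, mouse as random block, correlation 0.14), Psmb10 kept its call in striatum (FDR = 0.0185) and lost it in the combined test (FDR = 0.107, against 0.0991 without the block). The count for wild-type regions was 34, 37 with this block and 36 with the mouse as fixed block. It ranged from 31 to 37 over the alternatives and from 32 to 35 on leaving out a mouse. Among the named fold changes, the sign changed for uncalled values only: Psma3 in cortex was -0.0359 in the largest series, Psmb10 in brainstem -0.0307 with brainstem alone and RIN, and Psmd3 in striatum -0.00308 with RIN of at least 7, -0.0182 with the thalamus score, -0.00985 in the largest series and -0.002 without the 3 libraries. The median of the core particle ranged from -0.025 to 0.0151 in brainstem and from -0.0249 to 0.0348 in cerebellum on leaving out a mouse, and so changed sign. With 5 to 8 mice a group, differences smaller than the intervals given could not be detected.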

Other observations

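The particles took different shares of the counts. In wild-type mice, transcripts of the regulatory particle made up 0.208 ± 0.0109% of counts in brainstem (SD, n = 8), 0.178 ± 0.00852% in cerebellum (n = 7), 0.172 ± 0.00691% in cortex (n = 7) and 0.166 ± 0.00985% in striatum (n = 8). Those of the core particle made up 0.0941 ± 0.00291%, 0.0851 ± 0.00823%, 0.0827 ± 0.00403% and 0.0809 ± 0.00434% in the same order. The activators took 0.0219 ± 0.0008% in brainstem and 0.0243 ± 0.00114% in cerebellum. Of their genes, Psme4 (77.7 and 110.0 CPM) and Psme2 (8.3 and 9.55 CPM) had the higher mean in cerebellum, and Psme1 (29.6 and 19.2 CPM) and Psme3 (102 and 95.2 CPM) in brainstem. In the SCA3 striatum the shares were 0.158 ± 0.00816% for the regulatory particle, 0.0764 ± 0.00245% for the core and 0.0212 ± 0.000797% for the activators (n = 5). These shares are not corrected for transcript length.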
